A study of Mus musculus with 12 samples.

Results

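Lipid-associated macrophages of adipose tissue were selected by the summed mRNA of Gpnmb, a lysosomal membrane glycoprotein, and Mmp12, the macrophage elastase. A cell could pass on either gene alone. In this way 3601 cells were found among 126095 cells kept for analysis (2.86%) and 53041 macrophages (6.79%). A cell was a member if it had 700 to 22000 unique molecular identifiers (UMIs, each standing for 1 captured mRNA molecule), 200 to 6000 genes and under 25% mitochondrial UMIs, together with at least 1 UMI of Adgre1 or Csf1r, at least 1 of Trem2 and at least 5 of Gpnmb and Mmp12 summed. It also had 0 UMIs of Lyve1 and Cd163 (perivascular macrophages), of Mki67 and Top2a (dividing cells) and of Pdgfra (stromal progenitors). Members were thus chosen by the measured UMIs of these 10 genes, so their levels are given below as a description with no test.

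The cells came from single-cell RNA sequencing of the stromal vascular fraction, the non-adipocyte cells left after collagenase digestion and removal of the floating layer, so macrophages that float with fat cells were not measured. Fat was taken from male mice 12 weeks old, from the epididymal depot (eWAT) and the inguinal depot (iWAT), in 12 libraries. The 3 groups of each depot had 2 libraries each: lean C57BL/6J mice given vehicle (WT-Veh), leptin-deficient Lepob/Lepob mice given vehicle (ob/ob-Veh), and Lepob/Lepob mice given rosiglitazone (ob/ob-Rosi), an agonist of the nuclear receptor PPARγ. Rosiglitazone was given by gavage at 30 mg/kg, in the morning and the evening, for 3 days, and the vehicle was methylcellulose. A lean group given rosiglitazone was not analysed here, so ob/ob-Rosi against WT-Veh differs in both genotype and treatment, and the 2 cannot be told apart. The eWAT and iWAT tables had been made separately, and no iWAT barcode exceeded 22000 UMIs, so depot and processing cannot be told apart either.

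Libraries held 20132553 to 92475986 UMIs. The Lepob mutation leaves the leptin transcript in place, and leptin mRNA is known to be abundant in the fat of these mice. Lep and Adipoq are known as genes of adipocytes, and the source of their UMIs in these libraries was not tested. Lep UMIs per 100 Adipoq UMIs were 28.0 and 42.5 in eWAT WT-Veh, 3.95 and 16.2 in eWAT ob/ob-Veh and 240 and 390.1 in eWAT ob/ob-Rosi. In iWAT the ratios were 20.1 and 31.6 in WT-Veh, 36.4 and 15.1 in ob/ob-Veh, and 164 and 141 in ob/ob-Rosi. By this ratio the libraries labelled ob/ob-Veh were the lowest in eWAT, against what the label would give. They held 7 and 43 Lep UMIs and 177 and 265 Adipoq UMIs. The eWAT WT-Veh libraries held 33 and 37 Lep UMIs and 118 and 87 Adipoq UMIs. Scaled to library UMIs instead, Lep in eWAT ob/ob-Veh replicate 1 lay below both WT-Veh libraries, but replicate 2 lay above both. In iWAT the ratio of ob/ob-Veh replicate 1 lay above and that of replicate 2 below both WT-Veh libraries, on only 4 and 8 Lep UMIs. Scaled to library UMIs, Lep in each iWAT ob/ob-Veh library lay below both WT-Veh libraries. Each direction below is between libraries as labelled. The 66 pairs of libraries shared at most 99 kept cell barcodes, and 3 member barcodes were shared over all pairs.

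Lipid-associated macrophages are known from crowns around dying adipocytes, where they take up lipid and break it down in enlarged lysosomes. Trem2, a lipid-sensing receptor that signals through Tyrobp, drives their gene programme, which includes Cd9, Lpl, Fabp5 and lysosomal genes. Gpnmb is induced by the lysosomal transcription factors Mitf and Tfeb, and Atp6v0d2 is a subunit of the vacuolar proton pump that is typical of osteoclasts and lipid-laden macrophages. Perivascular macrophages, which carry Lyve1 and Cd163, line vessels and take up material from blood.

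The 250 bases before each annotated start of the gate genes Gpnmb, Mmp12 and Trem2 and of Itgax (CD11c), 1 of the genes called between the eWAT groups below, are printed from RefSeq on GRCm38.p6, 5′ to 3′ on the plus strand, on which all 4 genes lie. They were searched on both strands for the letters CACGTG (the E-box read by Tfeb), TCATGTG (the M-box read by Mitf) and GAGGAA (the core of sites of PU.1, the macrophage factor), and matches are in capitals. Mmp12 has 2 annotated starts and so 2 windows.
Gpnmb, chr6:49036268-49036517: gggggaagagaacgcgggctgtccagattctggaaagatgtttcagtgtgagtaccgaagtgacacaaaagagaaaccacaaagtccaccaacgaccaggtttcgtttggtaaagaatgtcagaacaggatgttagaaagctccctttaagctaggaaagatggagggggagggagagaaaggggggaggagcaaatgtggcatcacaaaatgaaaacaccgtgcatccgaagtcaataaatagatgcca
Mmp12 upstream start, chr9:7344147-7344396: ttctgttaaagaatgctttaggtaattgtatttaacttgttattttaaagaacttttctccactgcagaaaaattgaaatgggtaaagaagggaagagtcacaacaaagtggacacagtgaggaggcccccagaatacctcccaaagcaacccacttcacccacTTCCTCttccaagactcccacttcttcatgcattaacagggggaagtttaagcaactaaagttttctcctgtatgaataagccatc
Mmp12 downstream start, chr9:7347124-7347373: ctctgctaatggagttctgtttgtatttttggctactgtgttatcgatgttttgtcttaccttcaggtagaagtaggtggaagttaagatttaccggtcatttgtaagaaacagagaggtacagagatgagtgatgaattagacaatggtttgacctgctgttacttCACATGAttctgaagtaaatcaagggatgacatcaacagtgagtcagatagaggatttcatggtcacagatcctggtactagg
Trem2, chr17:48346151-48346400: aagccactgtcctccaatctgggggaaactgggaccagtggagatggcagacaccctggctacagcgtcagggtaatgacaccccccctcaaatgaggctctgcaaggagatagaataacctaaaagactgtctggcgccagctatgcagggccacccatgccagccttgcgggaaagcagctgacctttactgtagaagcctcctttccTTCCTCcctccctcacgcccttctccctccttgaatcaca
Itgax, chr7:128129300-128129549: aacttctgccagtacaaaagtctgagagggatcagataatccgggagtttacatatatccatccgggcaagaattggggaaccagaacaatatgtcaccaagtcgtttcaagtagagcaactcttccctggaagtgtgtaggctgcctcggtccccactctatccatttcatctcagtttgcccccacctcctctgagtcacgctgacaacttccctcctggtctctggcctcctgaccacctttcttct

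In capitals are the PU.1 core (as TTCCTC) in the upstream Mmp12 window and in the Trem2 window, and the M-box (as CACATGA) in the downstream Mmp12 window. The Gpnmb and Itgax windows held none of the letters searched. Among 32851 windows of the same length of 27025 genes, 23.3% held the PU.1 core, 3.25% the M-box and 6.02% the E-box. The E-box stood in 5 of 12 windows of cathepsins and their inhibitors (41.7%), in 4 of 21 windows of lysosomal hydrolases (19.05%) and in 2 of 16 windows of the proton pump (12.5%). It was not limited to lysosomal lists, with 2 of 7 windows of dendritic cell genes (28.6%) and 3 of 12 of cholesterol synthesis. A match of letters is a description and not a bound site.

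In both depots members were common in the WT-Veh and the ob/ob-Rosi libraries and nearly missing from those labelled ob/ob-Veh. In eWAT, members were 768 of 14718 and 407 of 6472 kept cells in WT-Veh, 9 of 9165 and 16 of 7751 in ob/ob-Veh, and 690 of 9439 and 1121 of 10068 in ob/ob-Rosi. In iWAT they were 112 of 17063 and 97 of 9837 in WT-Veh, 3 of 7205 and 1 of 7203 in ob/ob-Veh, and 178 of 9674 and 199 of 17500 in ob/ob-Rosi. Of macrophages, members made up 9.63% (8.99 to 10.3) and 12.1% (11.02 to 13.3) in eWAT WT-Veh, 0.309% (0.141 to 0.586) and 0.609% (0.349 to 0.988) in eWAT ob/ob-Veh, and 13.3% (12.4 to 14.3) and 19.6% (18.6 to 20.7) in eWAT ob/ob-Rosi, with 95% exact binomial intervals that cover counting error only. In iWAT the shares of macrophages were 2.19% (1.81 to 2.63) and 2.33% (1.89 to 2.83) in WT-Veh, 0.121% (0.0250 to 0.354) and 0.0528% (0.00134 to 0.294) in ob/ob-Veh, and 4.14% (3.56 to 4.77) and 2.72% (2.36 to 3.11) in ob/ob-Rosi. At this threshold the groups did not overlap in either depot, with ob/ob-Veh the lowest and ob/ob-Rosi the highest. In iWAT, WT-Veh and ob/ob-Rosi overlapped under 2 other settings. With Gpnmb and Mmp12 at no less than 1 in 1000 UMIs of the cell, the shares of macrophages were 3.52 and 2.14% against 3.83 and 2.47%. With every cell thinned to 2000 UMIs they were 3.62 and 1.33% against 2.95 and 2.28%.

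The means were 10.9% ± 1.75, 0.459% ± 0.212 and 16.5% ± 4.48 of macrophages in eWAT, and 2.26% ± 0.0959, 0.0870% ± 0.0483 and 3.43% ± 1.00 in iWAT (SD, n = 2, with WT-Veh first, then ob/ob-Veh, then ob/ob-Rosi). For each pair of groups the 2-sided exact permutation test gave p = 0.333, the smallest p that 2 libraries against 2 allow. Among macrophages with a Trem2 UMI that passed the other conditions, members were 26.1 and 28.8% in eWAT WT-Veh, 6.43 and 10.7% in ob/ob-Veh and 36.1 and 37.3% in ob/ob-Rosi, and 16.9 and 19.8%, 7.89 and 11.1% and 23.9 and 22.7% in iWAT. Fewer members and less Gpnmb or Mmp12 mRNA per cell cannot be told apart in these shares, because the gate reads the mRNA. Macrophages that met those conditions but stayed under the threshold were also few in ob/ob-Veh. In eWAT they were 2173 of 7975 and 1007 of 3362 macrophages in WT-Veh, 131 of 2911 and 134 of 2626 in ob/ob-Veh. In iWAT they were 549 of 5109 and 392 of 4167 in WT-Veh, 35 of 2476 and 8 of 1893 in ob/ob-Veh. The scarcity in ob/ob-Veh was thus not particular to members. Just outside the threshold, 666 cells had 3 and 465 had 4 UMIs of Gpnmb and Mmp12 summed, and just inside it 357 had 5 and 239 had 6.

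Cells of other types reached the threshold as well. Stromal cells reached the 5 UMIs in 0.541 to 4.33% of cells per library, at median depths of 1495 to 6843 UMIs, and lymphocytes in 0 to 1.15%, at 989 to 3412 UMIs. Whether stromal cells make either gene was not tested. In ob/ob-Veh, stromal cells reached it in 0.578 and 1.55% (eWAT) and in 3.01 and 1.00% (iWAT). The share of macrophages in the gate was below this in each of the 4 libraries, but that share also asks for a Trem2 UMI and the other conditions. Among macrophages that met those conditions, 6.43 and 10.7% (eWAT) and 7.89 and 11.1% (iWAT) reached it, on 9, 16, 3 and 1 members. The stromal share asks for no Trem2 UMI and so is not of the same gate. Whether the ob/ob-Veh shares lie above a background, and where the stromal UMIs came from, was not tested. With every cell thinned to 2000 UMIs, which left out shallower cells, the order of the iWAT means of WT-Veh and ob/ob-Rosi as shares of kept cells turned, from 0.667 percentage points higher to 0.167 lower in ob/ob-Rosi.

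**Figure D1:**
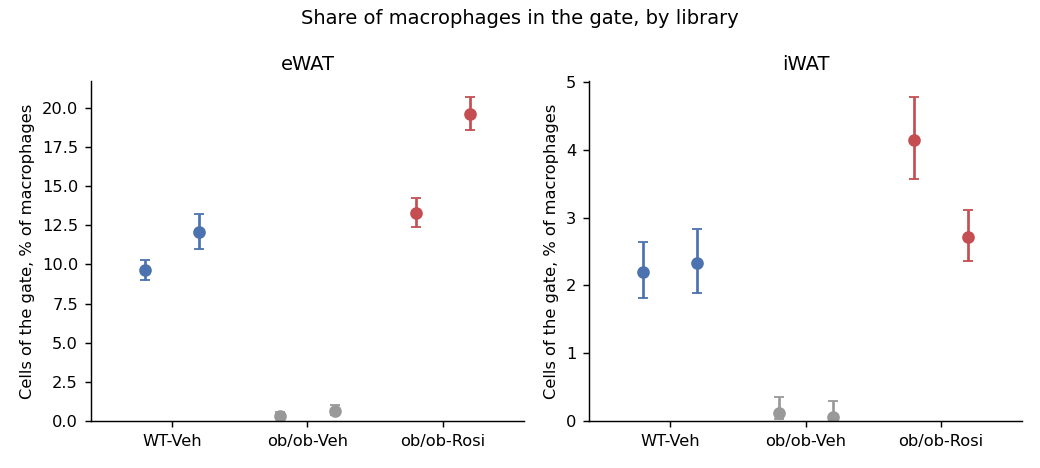
Members as a percentage of macrophages on the y axis (linear, from 0, with its own scale in each depot), with 1 point per library and bars for the 95% exact binomial interval, for the 3 groups of each depot. The ob/ob-Veh libraries lie under 1% in both depots, and each ob/ob-Rosi library lies above both WT-Veh libraries of its depot.

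The members carried the genes known for lipid-associated macrophages that the gate did not read. Of the 5 markers, Trem2, Gpnmb and Mmp12 were read by the gate, which leaves 2. Levels are given as counts per 1000000 UMIs of the summed members of a library (CPM), over the 8 libraries with at least 20 members, which are those of WT-Veh and ob/ob-Rosi. Atp6v0d2 was at 461 to 735 CPM in members, a mean 3.06 times that of Trem2 macrophages under the threshold (per library 2.35 to 3.91) and 14.7 times that of perivascular macrophages. Fabp5, a fatty acid binding protein, was at 1629 to 2482 CPM, 2.45 and 8.66 times the same populations. Both were higher in all 8 libraries against either population. A gate compared with the cells it left out is no test, so these ratios carry no p-value.

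The comparison populations were 8781 Trem2 macrophages under the threshold, called Trem2-low here, and 9420 perivascular macrophages, with no Trem2 and at least 2 UMIs of Lyve1 and Cd163 summed. The name Trem2-low stands for Trem2 macrophages low in Gpnmb and Mmp12, which were not chosen for low Trem2. Members were deeper than Trem2-low cells in each of the 8 libraries, with median UMIs of 5088 and 9891 against 2350 and 4356 in eWAT WT-Veh and 6529 and 9799 against 2244 and 4603 in eWAT ob/ob-Rosi. In iWAT they were 2994 and 10374 against 1344 and 5086 in WT-Veh and 8348 and 7646 against 4948 and 3678 in ob/ob-Rosi. A fixed threshold in UMIs picks deeper cells, and CPM divides by depth but does not undo that choice. Over the 5957 genes with a mean of at least 20 CPM in either population, 899 (15.1%) were higher in members in all 8 libraries and 1222 (20.5%) lower, with a median ratio of 0.974. In counts over genes and lists, here and below, a library where the comparison population had no UMI of a gene was left out for that gene.

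Beside Trem2-low cells, the genes of highest ratio were a coagulation factor, an endoplasmic reticulum protein and an integrin. F7, coagulation factor VII, had a mean of 124 CPM against 16.2, a ratio of 7.65 (5.01 to 10.6 per library). Wfs1, wolframin of the endoplasmic reticulum, had a ratio of 5.29 and Itgax, the integrin chain CD11c, of 5.11 (2.92 to 8.74, 169 against 33.0 CPM). Ctsk, the collagen-degrading cathepsin of osteoclasts, was at 594 against 129 CPM (4.60), and Ctsl, the most abundant of these, at 5004 against 1427 CPM (3.51). The others among the 15 highest included Vsig8 (4.96), Lhfpl2 (4.46), the ubiquitin ligase Rnf128 (4.11), the phosphatidylserine bridge Mfge8 (4.07), Syngr1 (3.51), osteopontin Spp1 (3.43), syndecan Sdc1 (3.26), Fbxo32 (3.23) and hexokinase Hk3 (3.14). All 15 were higher in members in each of the 8 libraries.

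By function, lysosomal lists and several lists of lipid handling held more higher genes than the 15.1% of all genes, while lipolysis and lipophagy (1 of 6 higher and 2 lower in all 8 libraries, median ratio 0.858) and cholesterol synthesis (1 of 6 higher) did not stand out. Of the lipid-associated macrophage programme without the gate genes, 23 of 26 genes were higher in all 8 libraries (median ratio 1.79), with Lgals3, a galectin that marks damaged lysosomes, at 8848 against 3603 CPM (2.46), and Cd9, a tetraspanin, at 493 against 217 (2.28). The exceptions that were lower on average were Fabp4 (0.577, higher in 1 of 8 libraries) and Apoe (0.850, higher in 3 of 8). Of the proton pump, 15 of 17 subunits were higher in all 8 (1.39), such as the catalytic subunit Atp6v1a (1.76) and Atp6ap1 (1.32). Cathepsins and their inhibitors gave 9 of 13 (1.65), including Ctsd (2.34) and Ctsb (1.77), and lysosomal hydrolases and membrane proteins 16 of 24 (1.32), including Lipa, the acid lipase that frees fatty acids from stored esters (2.00). Lipid uptake and storage gave 8 of 13 (1.51), with the scavenger receptor Cd36 at 1.51, the lipase Lpl at 1.61 and the droplet coat Plin2 at 1.61. Osteoclast and fusion genes gave 7 of 10 (1.69), with Acp5 at 2.61, and glycolysis 10 of 14 (1.28), with Ldha at 1.52.

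The lower genes included those of monocytes, antigen presentation and early response, where 20.5% of all genes were lower in all 8 libraries. Of 16 immediate early and heat shock genes, 14 were lower in all 8 libraries (median ratio 0.531), such as Jun (0.424) and Fos (0.549). MHC class II gave 5 of 7 (0.460), with Cd74, the invariant chain, at 4138 against 9317 CPM. Chemokines gave 10 of 15 (0.528), alternative activation 7 of 11 (0.485), monocyte genes 5 of 8 (0.396) and cytosolic ribosomal proteins 51 of 77 (0.885). Inflammatory cytokines and NF-kB gave 11 of 17 (0.629), interferon response 5 of 8 (0.566) and perivascular macrophage genes 6 of 10 (0.459). Single genes lowest against Trem2-low cells included Chil3 (ratio 0.0653), a chitinase-like protein, F13a1, coagulation factor XIII (67.5 against 470.2 CPM), and Ccr2, the receptor of monocyte recruitment (42.6 against 189.8 CPM). Markers of other cells were lower too, with all 8 stromal genes (0.396) and 6 of 7 endothelial genes (0.352) lower in all 8 libraries.

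Beside perivascular macrophages the distance was larger. There, 1109 of 6232 genes (17.8%) were higher in members and 1506 (24.2%) lower in every library where the perivascular macrophages had a UMI of the gene. Itgax was at 169 against 8.90 CPM (18.9), Sdc1 had a ratio of 14.4, the interleukin-7 receptor Il7r of 14.2, Ctsk of 13.3, the metalloproteinase Adam8 of 12.6 and the potassium channel Kcnn4 of 12.4, each higher in all 8 libraries. The lipid-associated programme gave 23 of 26 genes (median ratio 3.14), with Lpl at 3809.9 against 461 CPM and Lgals3 at 8848 against 1194. Nuclear genes of the respiratory chain gave 52 of 75 (1.38). All 12 perivascular genes were lower in all 8 libraries (0.0713), with F13a1 at 67.5 against 2682 CPM. The 2 populations were chosen on opposite conditions of Trem2 and of Lyve1 and Cd163. Lower perivascular genes and a larger distance thus follow in part from the choice and are no test. In replicate 2 of eWAT WT-Veh and ob/ob-Rosi the perivascular sums rest on 45 and 37 cells.

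**Figure D2:**
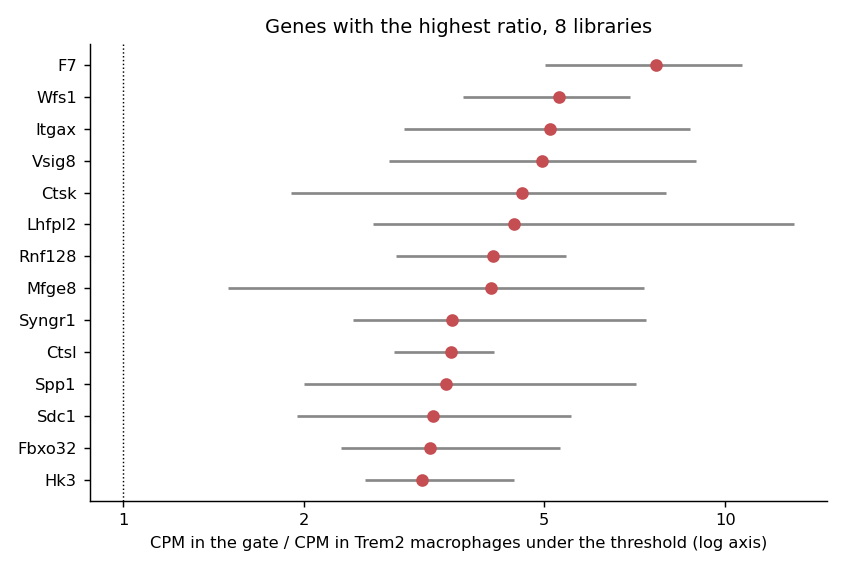
Ratio of mean CPM in members to that in Trem2-low macrophages (Trem2 macrophages under the Gpnmb and Mmp12 threshold) on a log axis, with a point for the mean and a line for the lowest and highest of the 8 libraries, for genes among the 15 of highest ratio. All those drawn lie above 1 in every library, from F7 at 7.65 down to Hk3 at 3.14.

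The members were not alike in the 2 genes that chose them. Members with Gpnmb but no Mmp12 UMI were 64.2 and 67.3% in eWAT WT-Veh, 22.2 and 37.5% in eWAT ob/ob-Veh, and 26.7 and 27.7% in eWAT ob/ob-Rosi. For members with both genes the shares were 34.9 and 31.4% in WT-Veh, 55.6 and 43.8% in ob/ob-Veh and 66.1 and 70.5% in ob/ob-Rosi, and those with Mmp12 alone 0.911 and 1.23%, 22.2 and 18.8%, and 7.25 and 1.87%. Most lean members were thus positive for Gpnmb alone, and most ob/ob-Rosi members for both. In iWAT, Gpnmb alone was seen in 48.2 and 58.8% of WT-Veh members and in 25.8 and 25.6% of ob/ob-Rosi members. Of the summed UMIs of the pair, Gpnmb gave 86.6 and 87.7% against 60.8 and 67.9% in eWAT, and 81.3 and 74.4% against 53.4 and 58.3% in iWAT. These values are of the gate's own genes and are given without a test.

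**Figure D3:**
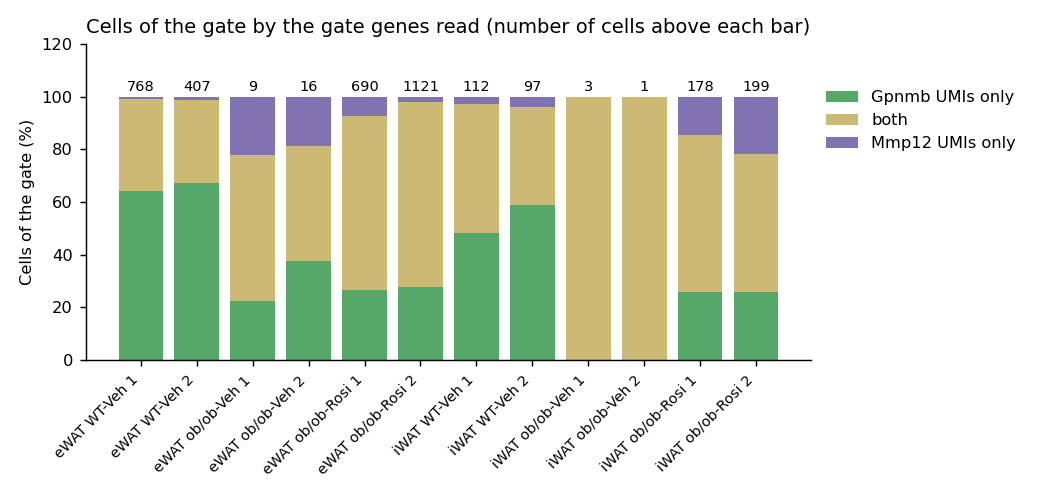
Percentage of members with Gpnmb alone, with both genes and with Mmp12 alone, as stacked bars from 0 to 100, with 1 bar per library. Gpnmb alone is the largest part in both eWAT WT-Veh libraries (64.2 and 67.3%) and a smaller part than both genes together in the eWAT ob/ob-Rosi libraries (26.7 and 27.7%); the iWAT ob/ob-Veh bars rest on 3 and 1 cells.

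Members with an Mmp12 UMI differed from those without in genes that the gate did not read. Itgax was at 233 against 66.7 CPM (ratio 3.49, 1.86 to 5.78 over 8 libraries), and Mfge8 at 516 against 172 (3.00). Fn1, fibronectin, was at 498 against 150 (3.32), Wfs1 had a ratio of 2.69, F7 of 2.44, Ctsk of 1.85 and Cd9 of 1.59, all above 1 in 8 of 8 libraries. Members without Mmp12 had more Ms4a6b (ratio 0.425), Aif1 (0.484), the selenium carrier Selenop (0.498) and the lectin Clec10a (0.565), in 8 of 8 libraries. Atp6v0d2 (1.09) and Fabp5 (1.19) were close to even, and Spp1 was above 1 in 3 of 8 libraries (0.637).

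Within eWAT members, Mfge8, Ctsk and Ctsl rose and H2-Ab1 and Mrc1 fell with the summed level of Gpnmb and Mmp12. The bins of 5 to 9, 10 to 19, 20 to 49 and at least 50 UMIs held 40.5, 30.9, 20.7 and 7.94% of members in eWAT WT-Veh replicate 1 and 34.9, 24.1, 24.6 and 16.5% in replicate 2. They held 26.5, 23.5, 28.3 and 21.7% in eWAT ob/ob-Rosi replicate 1 and 28.3, 21.6, 24.4 and 25.8% in replicate 2, so more of the ob/ob-Rosi members lay in the top bin, and the largest sum in any member was 616 UMIs. From the lowest to the top bin, Mfge8 went from 55.7 and 55.5 to 610.5 and 424 CPM in eWAT WT-Veh and from 75.6 and 110.3 to 1042 and 832 in ob/ob-Rosi. Ctsk went from 231 and 265 to 998 and 841 and from 286 and 179 to 1208 and 762 CPM, and Ctsl from 4001 and 2953 to 9784 and 9155 and from 2299 and 2491 to 6763 and 7762 CPM. The opposite held for H2-Ab1, an MHC class II chain, which went from 1283 and 2147 to 407 and 742 CPM in WT-Veh and from 2425 and 2306 to 944 and 772 in ob/ob-Rosi. Mrc1, the mannose receptor, went from 310.3 and 514 to 111 and 264 and from 423 and 238 to 174 and 119.7 CPM. Depth rose along the bins as well, from a median of 4115 to 9338 UMIs in WT-Veh replicate 1 and from 5019 to 10122 in ob/ob-Rosi replicate 1, and its part in these gradients was not tested.

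**Figure D4:**
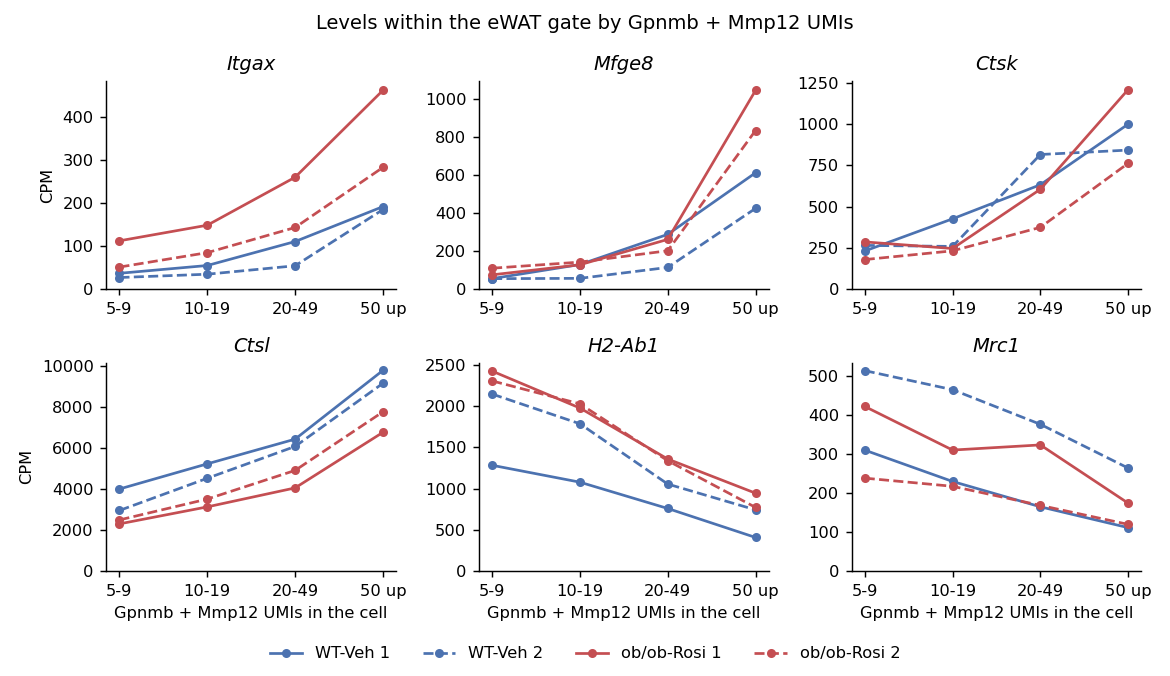
CPM of named genes in eWAT members by the summed UMIs of Gpnmb and Mmp12 (bins on the x axis, linear y axis from 0), with 1 line per library of WT-Veh and ob/ob-Rosi. Itgax, Mfge8 and Ctsk are higher in the top bin than in the lowest in all 4 libraries, and H2-Ab1 and Mrc1 are lower.

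Members of eWAT were then compared between ob/ob-Rosi and WT-Veh, to ask whether cells that pass 1 gate carry the same mRNA in both settings. Itgax rose and Rbp7 and Nptx1 fell, and few other genes differed beyond the spread between libraries. Of 10510 genes tested with edgeR's quasi-likelihood test on UMIs summed per library, 5 passed (0.0476%), which took an adjusted p of 0.05 or less and a 1.1-fold change or more, and 158 higher and 163 lower genes had an unadjusted p under 0.05. Mmp12 was 1 of the 5 and is a gate gene, so nothing is read from it. Itgax, the integrin chain CD11c (chr7:128129547-128150657, plus strand), was at 82.5 and 73.6 CPM in WT-Veh and 274 and 161 in ob/ob-Rosi, with no overlap (log2 1.53, SE 0.28, adjusted p = 0.0488). Btbd17 was at 1.80 and 1.21 and 14.8 and 7.41 CPM (log2 2.87, SE 0.49, adjusted p = 0.0174), at low counts. Rbp7, a cytosolic retinol-binding protein (chr4:149449687-149454978, minus strand), was at 33.1 and 46.5 CPM in WT-Veh and 6.22 and 9.31 in ob/ob-Rosi (log2 -2.26, SE 0.31, adjusted p = 0.00168). Nptx1, neuronal pentraxin (chr11:119538719-119547753, minus strand), was at 16.2 and 23.7 and 1.36 and 3.71 CPM (log2 -2.78, SE 0.39, adjusted p = 0.00240).

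All 4 calls were lost without WT-Veh replicate 2, while the values stayed near those with it. Without it 0 genes were called, with log2 1.40 for Itgax (edgeR adjusted p 0.901), 2.59 for Btbd17 (0.657), -2.05 for Rbp7 (0.190) and -2.55 for Nptx1 (0.190). Without WT-Veh replicate 1, 11 genes were called, Itgax (adjusted p 0.324) and Btbd17 (0.126) not among them, and without ob/ob-Rosi replicate 1 or 2 there were 62 and 79 calls. Leaving out members with a UMI of Cd3e, Cd79a, Cdh5, Col1a1, S100a8, Msln or Flt3, markers of other lineages, gave log2 1.51 for Itgax (edgeR adjusted p 0.0948), -2.65 for Rbp7 (0.125) and -2.98 for Nptx1 (0.0120). Members with such a UMI were 32.6 and 34.4% in eWAT WT-Veh and 22.8 and 32.9% in ob/ob-Rosi. Itgax was also not called by library totals or with a threshold of 3 UMIs (edgeR adjusted p 0.255) or 10 UMIs (0.0566). Rbp7 was not called with a threshold of 3 UMIs (log2 -2.02, edgeR adjusted p 0.9999), nor Btbd17 without cells of another lineage (log2 2.98, 0.497). Endothelial markers, which Rbp7 is known to accompany, summed to 83.7 and 173 CPM in WT-Veh and 115 and 189.9 in ob/ob-Rosi and overlapped between the groups. Over whole eWAT libraries, not members, the adipocyte gene Adipoq was at 2.80 and 2.34 CPM in WT-Veh and 0.725 and 1.15 in ob/ob-Rosi. Lep went the other way, at 0.784 and 0.996 and at 1.74 and 4.49 CPM. The part of RNA from other cells in the change of Rbp7 was not tested.

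The difference in Itgax was seen at each level of the gate. In the bin of 5 to 9 UMIs it was at 37.2 and 27.3 CPM in WT-Veh and 113 and 51.7 in ob/ob-Rosi, and in the bin of at least 50 at 192 and 185 and 463 and 284, and the groups did not overlap in any of the 4 bins. Among members with an Mmp12 UMI it was at 134 and 136 CPM against 331 and 196, and among those without at 48.996 and 40.3 against 86.1 and 52.5. Both splits are by genes of the gate. Members with an Mmp12 UMI were 275 of 768 and 133 of 407 in WT-Veh and 506 of 690 and 811 of 1121 in ob/ob-Rosi. The part of this shift in the change of Itgax was not tested. The eWAT ob/ob-Veh members, 9 and 16 cells, had 328 and 236 CPM. Outside the gate, Trem2-low cells had 20.3 and 25.2 CPM in eWAT WT-Veh and 42.2 and 32.2 in ob/ob-Rosi.

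Genes named because their p was next in order did not pass the test. Higher in ob/ob-Rosi were Mfge8 (log2 1.21, SE 0.26, adjusted p = 0.150), Tspan7 (log2 2.38) and Rgs5 (log2 2.50), the latter pair with an adjusted p of 0.190. Lower were Igkc, an immunoglobulin chain (log2 -3.11, adjusted p 0.0745), Ngef (log2 -3.93, 0.145) and Syne2 (log2 -1.38, 0.150). B cell markers summed to 195 and 195 CPM in WT-Veh members and 70.8 and 77.7 in ob/ob-Rosi members, so they moved with Igkc, and their part was not tested.

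Rosiglitazone activates PPARγ, so the list of PPAR targets was read in the members, between ob/ob-Rosi and WT-Veh, where genotype and treatment cannot be told apart. None of its 26 genes was called in eWAT, where 24 had a negative and 2 a positive log2 change in ob/ob-Rosi members (median -0.29, against 0.01 over all genes). In iWAT 0 of 24 were called, where 0.0353% of all genes tested were called, and 19 were negative and 5 positive (median -0.38). Adipocyte markers were also lower in the iWAT ob/ob-Rosi members, as given below, and their part in these changes was not tested. Angptl4, an inhibitor of lipoprotein lipase, was at 152 and 179.7 CPM in eWAT WT-Veh and 51.3 and 90.9 in ob/ob-Rosi (log2 -1.16, SE 0.27, adjusted p = 0.222), and at 209 and 184 and 25.8 and 56.3 in iWAT (log2 -2.17, SE 0.39, adjusted p = 0.0772). Its groups did not overlap in either depot, but the calls were not made. Fabp4, the adipocyte fatty acid binding protein, was at 3014 and 3359.7 CPM in eWAT WT-Veh and 1936 and 2497 in ob/ob-Rosi (log2 -0.47), with log2 -0.59 in iWAT. The changes in eWAT and iWAT were -0.39 and -0.62 for Plin2, -0.14 and -0.58 for Cd36, and 0.05 and -0.24 for Lpl, in log2 and none called. In the comparison with at least 5 members given below, eWAT ob/ob-Veh against WT-Veh had log2 -2.03 for Angptl4, -1.90 for Fabp4 and -1.07 for Plin2. These values rest on 9 and 16 ob/ob-Veh cells.

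The other lists held few or no calls in eWAT. The lipid-associated programme had 1 call, Itgax, where 0.0476% of all genes tested were called. Of its 26 genes 14 were positive, with a median log2 of 0.02. The proton pump had 9 of 18 subunits positive (median 0.02), the cathepsins 9 of 13 (0.11), glycolysis 15 of 18 (0.23) and MHC class II 7 of 8 (0.40), with no gene called in any of them. Cell cycle genes had 2 of 14 positive (-0.28) and 0 calls, in cells already chosen to lack Mki67 and Top2a.

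**Figure D5:**
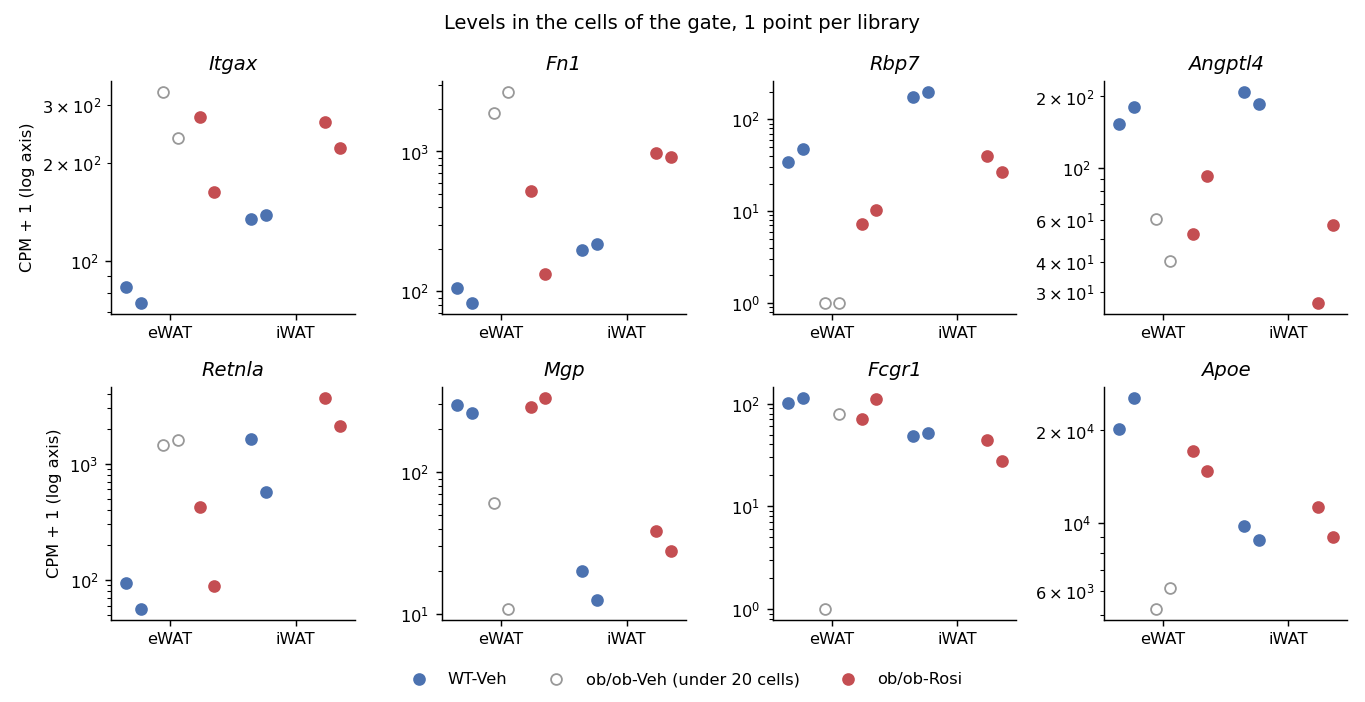
CPM of named genes summed over the members of each library (log y axis of CPM + 1, 1 point per library coloured by group, depots on the x axis). Itgax is higher and Rbp7 lower in the eWAT ob/ob-Rosi libraries than in either WT-Veh library; open ob/ob-Veh points rest on 9 and 16 cells in eWAT, and iWAT ob/ob-Veh, with 3 and 1 cells, is not drawn.

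In iWAT members, fibronectin rose and Rbp7 fell between WT-Veh and ob/ob-Rosi. Of 8489 genes, 3 were called (0.0353%), with 173 higher and 181 lower genes at an unadjusted p under 0.05 by edgeR. Fn1, a matrix protein that macrophages also make (chr1:71585520-71653200, minus strand), was at 196 and 216 CPM in WT-Veh and 972 and 912 in ob/ob-Rosi (log2 2.27, SE 0.33, adjusted p = 0.0213). Rbp7 was at 177 and 200 and 39.0 and 25.6 CPM (log2 -2.47, SE 0.35, adjusted p = 0.0213). Trbc2, a constant part of the T cell receptor, was at 48.97 and 16.4 and 0.601 and 1.16 CPM (log2 -4.85, SE 0.76, adjusted p = 0.0297), and the 8 T and NK cell markers summed to 179 and 38.6 CPM in WT-Veh and 7.21 and 10.46 in ob/ob-Rosi, so T cell RNA moved with it. The levels of Fn1 and Rbp7 did not overlap between the groups. Fn1 was higher in members with an Mmp12 UMI than in those without, as given above. Members with Gpnmb alone were 48.2 and 58.8% in iWAT WT-Veh and 25.8 and 25.6% in ob/ob-Rosi. Mmp12 is a gate gene, and the part of this shift in the change of Fn1 was not tested.

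Fn1 was not called without ob/ob-Rosi replicate 1 (edgeR adjusted p 0.0785) or replicate 2 (0.106), and Rbp7 not without ob/ob-Rosi replicate 2 (0.295). Leaving out WT-Veh replicate 1 or 2 gave 41 and 126 calls, and leaving out ob/ob-Rosi replicate 1 or 2 gave 11 and 7. Without members that held a UMI of another lineage 0 of 6340 genes were called (edgeR; with an unadjusted p under 0.05 for 146 higher and 145 lower genes), with Fn1 at log2 2.46 (adjusted p 0.317) and Rbp7 at -1.36 (0.991). Members with such a UMI were 55.4 and 38.1% in iWAT WT-Veh and 51.7 and 48.2% in ob/ob-Rosi, so this fit rests on far fewer cells. Adipocyte markers summed to 317 and 50.2 CPM in iWAT WT-Veh members and 27.6 and 16.3 in ob/ob-Rosi members and moved with Rbp7. Their source and their part were not tested. Rbp7 also differed outside the gate, with 354 and 517 CPM in Trem2-low cells of iWAT WT-Veh and 151 and 41.6 of ob/ob-Rosi, and 182 and 209.6 and 75.3 and 21.0 in perivascular macrophages. In eWAT, Trem2-low cells had 48.5 and 294 CPM in WT-Veh and 25.4 and 68.6 in ob/ob-Rosi, which overlap.

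Below the threshold in iWAT were Dcstamp, which is needed for macrophage fusion, and genes of several roles. Dcstamp was at 10.6 and 9.66 CPM in WT-Veh and 57.1 and 49.96 in ob/ob-Rosi (log2 2.48, SE 0.44, adjusted p = 0.0772). Mfap5 (log2 2.04, adjusted p 0.221), Fcrls (2.72, 0.229) and Ctla2a (1.65, 0.243) had positive values that did not pass. Akap12 (log2 -2.59, adjusted p 0.0961) and thrombospondin Thbs1 (-1.92, 0.243) had negative values that did not pass. Of the lists, MHC class II had 8 of 8 genes positive (median log2 1.00, with H2-Ab1 at 1.18), nuclear respiratory chain genes 70 of 75 (0.39), cytosolic ribosomal proteins 76 of 77 (0.34) and mitochondrially encoded chain genes 1 of 13 (-0.76), with 0 genes called in each. Members of iWAT WT-Veh replicate 1 had a median of 2994 UMIs, against 7646 to 10374 in the other 3 libraries of this comparison, and 7.53% of mitochondrial UMIs against 2.35 to 4.82%, and the part of these differences in the lists was not tested. The lipid-associated programme had 14 of 26 positive and 0 called (0.01). Of all genes tested in iWAT, 0.0353% were called.

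The members of the libraries labelled ob/ob-Veh were too few for the comparison as designed, at 9 and 16 cells in eWAT and 3 and 1 in iWAT. A comparison of the eWAT cells with a minimum of 5 members per library was chosen after the data were seen. In it, Fabp4 and 4 other PPAR targets were called lower in ob/ob-Veh than in WT-Veh members, and the lysozyme Lyz1 was called higher. Of 10681 genes, 122 were called between ob/ob-Veh and WT-Veh (1.14%), 63 higher and 59 lower, with the median of all genes at log2 -0.16. The split depended on scaling, with 90 higher and 37 lower by library totals, where the median was 0.04, and 122 higher and 38 lower by DESeq2. Between ob/ob-Rosi and ob/ob-Veh 63 were called (0.59%), 31 higher and 32 lower, against 18 and 59 by library totals and 35 and 104 by DESeq2. Both comparisons share the ob/ob-Veh cells. In a fit that leaves out a library, its group keeps 1 library, so the spread between libraries comes from the other groups only.

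Of the 20 genes named between ob/ob-Veh and WT-Veh, 5 were called whichever library was left out. Lyz1, a lysozyme, was at 71.7 and 93.0 CPM in WT-Veh, 1889.9 and 973 in ob/ob-Veh and 186 and 80.8 in ob/ob-Rosi (log2 3.87, SE 0.40, adjusted p = 3.42e-05); its near-identical copy Lyz2 can share its reads. Mgp, matrix Gla protein, an inhibitor of calcification, was at 297 and 261 CPM in WT-Veh, 59.7 and 9.83 in ob/ob-Veh and 288 and 332 in ob/ob-Rosi (log2 -3.56, SE 0.49, adjusted p = 3.24e-05). Ifi27l2a, an interferon-induced gene, was at 201 and 191 CPM in WT-Veh, 9.95 and 29.5 in ob/ob-Veh and 124 and 119.8 in ob/ob-Rosi (log2 -3.32), and Hpgd, which inactivates prostaglandins, at 78.9 and 107 CPM in WT-Veh, 0 and 4.92 in ob/ob-Veh and 50.4 and 44.1 in ob/ob-Rosi. The ob/ob-Veh value of Hpgd rests on 1 UMI over both replicates, or 3.29 CPM with an exact Poisson 95% interval of 0.0833 to 18.3, so no fold is given. Gm12840 was at 0.8996 and 3.39 CPM in WT-Veh, 89.5 and 63.9 in ob/ob-Veh and 7.19 and 3.96 in ob/ob-Rosi (log2 4.91). In ob/ob-Rosi against ob/ob-Veh, 3 of 20 were called in every such fit, which were Mgp, Tmem37 and Gm12840.

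The calls of several other named genes were lost without 1 of the ob/ob-Veh replicates. Mesothelial markers summed to 657 CPM in ob/ob-Veh replicate 1, against 14.7 in replicate 2 and 3.71 to 25.4 in the other eWAT libraries, and stromal markers to 3173 CPM against 462, and their part in the calls was not tested. Ildr2, Adgrd1, Ackr3, Clu and Abi3bp were called higher and were not called without ob/ob-Veh replicate 1, with edgeR adjusted p of 0.378 to 0.772 and log2 of 1.37 to 2.61 in place of 3.62 to 4.55. Without ob/ob-Veh replicate 2, Ppbp was at log2 4.89 in place of 5.78 (edgeR adjusted p 0.0853) and Ifitm6 at 2.34 in place of 3.73 (0.305). Eng (edgeR adjusted p 0.0892), Ccl8 (0.0626), Rad50 (0.255) and Sox4 (0.319), called lower, were also not called without replicate 2, and Nt5dc2, Tspan33 and Zmat5, also lower, were lost without either replicate. These 7 lower genes had 0 to 2 UMIs each over both ob/ob-Veh replicates, so no fold is given. The count was 46 without ob/ob-Veh replicate 1, 178 without replicate 2 and 199 without WT-Veh replicate 2, and for ob/ob-Rosi against ob/ob-Veh it was 23 and 200 without the 2 ob/ob-Veh replicates in turn and 330 without ob/ob-Rosi replicate 1. Eng, endoglin, had 0 UMIs in both ob/ob-Veh replicates, under a floor of 9.87 CPM over the group, and 36.7 and 48.4 CPM in WT-Veh.

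Among the lipid lists, Fabp4 and other PPAR targets were called lower in ob/ob-Veh. Of 26 PPAR targets 5 were called lower in ob/ob-Veh than in WT-Veh (Fabp4, Plin2, Angptl4, Acadl and Ech1) and 0 higher, with a median log2 of -0.86, where 0.552% of all genes tested were called lower and 0.59% higher. Fabp4 was at 3014 and 3359.7 CPM in WT-Veh, 985 and 993 in ob/ob-Veh and 1936 and 2497 in ob/ob-Rosi. Fabp4 was called lower in all 4 fits that left out a library. Without ob/ob-Veh replicate 2 the other 4 were not called (edgeR adjusted p 0.0589 to 0.181), without ob/ob-Veh replicate 1 only Ech1 of these 4 was called, and Acadl and Plin2 were lost without WT-Veh replicate 1 and by library totals. Of the lipid-associated programme 1 gene was called higher, Itgax, and 5 lower (Fabp4, Plin2, Apoe, Lgals3 and Lgals1; median -0.42). In ob/ob-Rosi against ob/ob-Veh 5 of its genes were called higher (Fabp4, Apoe, Lgals3, Cd68 and Lgals1) and 0 lower, where 0.29% of all genes tested were called higher. Fn1 was at 1889.9 and 2679.6 CPM and Retnla at 1452 and 1593 CPM in the ob/ob-Veh members. In the wider set of all Trem2 macrophages of eWAT, 3301 of 12965 genes were called between ob/ob-Veh and WT-Veh (25.5%), 1856 higher and 1445 lower, or 2548 and 591 by library totals. In that set mesothelial markers summed in Trem2-low cells to 2926 and 2656 CPM in ob/ob-Veh and to 38.9 to 129 CPM in the other eWAT libraries. Leaving out ob/ob-Veh replicate 1 or WT-Veh replicate 1 gave 1472 and 2012 calls there.

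Members of the 2 depots differed in genes of macrophages and in genes of endothelium. Mgp, Fcgr1 and Apoe were lower and Retnla was higher in iWAT than in eWAT, in WT-Veh and ob/ob-Rosi alike. Of 10040 genes, 179 were called (1.78%) in a fit of 8 libraries with the group as a term, 150 of them higher in iWAT (1.49%) and 29 lower (0.289%). Mgp (chr6:136872435-136875823, minus strand) was at 297 and 261 CPM in WT-Veh and 288 and 332 in ob/ob-Rosi of eWAT, and 19.2 and 11.6 and 37.2 and 26.7 in iWAT (log2 -3.71, SE 0.25, adjusted p = 1.83e-06). Retnla, a resistin-like protein of alternatively activated macrophages (chr16:48842551-48844461, plus strand), was at 93.1 and 54.7 CPM in WT-Veh and 421 and 88.1 in ob/ob-Rosi of eWAT, and 1646 and 573 and 3704 and 2129 in iWAT (log2 3.65, SE 0.58, adjusted p = 0.0221). For both genes the depots did not overlap.

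The lower genes included receptors of macrophages. Fcgr1, the high-affinity IgG receptor, was at 100.3 and 113 CPM in WT-Veh and 69.8 and 110.1 in ob/ob-Rosi of eWAT, and 46.8 and 51.2 and 43.2 and 26.7 in iWAT (log2 -1.31, SE 0.22, adjusted p = 0.00435). Apoe, the carrier of cholesterol that macrophages secrete, was at 20148 and 25558 CPM in WT-Veh and 17165 and 14769.7 in ob/ob-Rosi of eWAT, and 9788 and 8804 and 11224 and 9001 in iWAT (log2 -1.03, SE 0.21, adjusted p = 0.0150). Ms4a7, a membrane protein of tissue macrophages (log2 -1.14), the chromatin protein Hmga2 (-1.90), Serpinb6b (-1.82), Sox4 (-1.42), Stmn1 (-1.22), Bmyc (-1.06) and the stromal proteoglycan Lum (-1.41) were called lower as well. Of 13 cell cycle genes 2 were called lower (Ube2c and Stmn1), and all 13 had a negative log2 (median -0.69), where 0.289% of all genes tested were called lower. Stmn1 was not called without cells of another lineage (edgeR adjusted p 0.0845) or with thinned members (0.156). Of the complement and Fc receptor list 2 of 15 were called lower (Fcgr1 and C1qa) and 0 higher.

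Among the 47 genes called higher with a mean of at least 20 CPM and no overlap between depots, the 10 largest changes were Retnla and 9 genes mostly known from endothelium. They were Kdr (log2 2.44), Adgrf5 (2.39), Btnl9 (2.36), Ptprb (2.31), Cdh5 (2.21), Adgrl4 (2.06), Timp4 (2.05) and Tm4sf1 (1.98), with the stromal gene Pi16 (3.12). Of the 7 endothelial markers 6 were called, where 1.78% of all genes tested were called. The 7 summed to 83.7 and 173 CPM in WT-Veh and 115 and 189.9 in ob/ob-Rosi of eWAT, and to 643 and 609 and 474 and 632 in iWAT, with none of them at 0. Without members that held a UMI of another lineage, 18 of 8719 genes were called, 10 higher and 8 lower, and 15 of them were among the 179. These included Mgp (log2 -3.65), Fcgr1 (-1.35), Ms4a7 (-1.18), Serpinb6b (-1.89), Hmga2 (-1.76) and Itgb5 (-1.07) on the lower side. On the higher side they included Retnla (3.75, edgeR adjusted p 0.00061), the collagenase Mmp13 (2.95), the gelatinase Mmp9 (2.19), Ocstamp, a gene of macrophage fusion (1.98), and the amidase Naaa (1.17). The other 5 higher genes were Igfbp5, at 4.24 the largest change of the 18 (edgeR adjusted p 0.000472), Fndc1 (3.23), Pi16 (3.01), Bcam (2.73) and Tgfbr3 (1.99), and the other 2 lower genes were Pcp4l1 (-1.72) and Gngt2 (-1.43). Of these 18 genes, those other than Mgp, Fcgr1, Ms4a7, Serpinb6b, Hmga2, Retnla and Pi16 were named after their values were seen.

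Of the 20 genes named between depots, 14 were called whichever of the 8 libraries was left out. Retnla was not called without iWAT WT-Veh replicate 1 (adjusted p 0.160), iWAT ob/ob-Rosi replicate 1 (0.0649) or iWAT ob/ob-Rosi replicate 2 (0.0532), nor with members thinned to 700 UMIs (0.313), all by edgeR. Apoe was lost without eWAT WT-Veh replicate 1 or 2 or without replicate 2 of iWAT WT-Veh or ob/ob-Rosi, at 0.0524 to 0.0782, and without cells of another lineage (0.105) or with a threshold of 3 UMIs (0.0587), and Adgrl4, Sox4, Lum and Bmyc in 2 to 5 fits each. The count of calls fell to 99 without eWAT WT-Veh replicate 1, 108 without iWAT ob/ob-Rosi replicate 1 and 112 without iWAT ob/ob-Rosi replicate 2. The depot difference of Mgp was not limited to members, since Trem2-low cells had 744 and 726 CPM in WT-Veh and 717 and 833 in ob/ob-Rosi of eWAT against 32.8 and 15.3 and 65.5 and 42.9 in iWAT, and perivascular macrophages 866 and 472 and 725 and 595 against 32.6 and 17.1 and 96.4 and 56.3.

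Whether members differed from other macrophages in their change between eWAT WT-Veh and ob/ob-Rosi was tested as an interaction, with the library as a block. The perivascular macrophages were 480 and 45 cells in eWAT WT-Veh and 321 and 37 in ob/ob-Rosi, so their sums in replicate 2 of each group rest on few cells. Against perivascular macrophages 7 of 10548 genes were called (0.0664%), and against Trem2-low cells 3 of 11709 (0.0256%). Retnla was called against both, with a difference of log2 2.02 and 1.50 (edgeR adjusted p 3.66e-11 and 1.92e-04), and in all 4 fits that left out a library. Without cells of another lineage it was not called against Trem2-low cells (log2 1.68, edgeR adjusted p 0.8995), while the call against perivascular macrophages stood (log2 2.27). It was at 93.1 and 54.7 CPM in WT-Veh members and 421 and 88.1 in ob/ob-Rosi members, at 361 and 259 and 688 and 137 in Trem2-low cells, and at 2718 and 937 and 2394 and 569 in perivascular macrophages. The groups overlapped in each population, and replicate 1 was above replicate 2 in each group, so the call is of the difference between populations within libraries. Ccl2, the chemokine that draws monocytes, was at 125 and 53.8 CPM in WT-Veh members and 207 and 96.7 in ob/ob-Rosi members, and at 877 and 459 and 363 and 267 in perivascular macrophages (difference of log2 1.96, edgeR adjusted p 5.24e-09), and was not called without ob/ob-Rosi replicate 1 (0.173). Itgax, Rbp7 and Nptx1 were not among the calls, so their change is not shown to be particular to the members.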

How the data were processed

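Per the submitters' processing notes, reads were demultiplexed with bcl2fastq 2.19.1.403 and aligned to mm10 with Cell Ranger 3.0.2. The values deposited by the authors were raw UMI counts of 31053 genes per barcode in 12 matrices, and 126095 of 139755 barcodes were kept by the limits on UMIs, genes and mitochondrial share. Doublets were not called, and in place of the study's Wilcoxon tests over cells, counts of members were summed per library. Sums were tested with edgeR 4.0.16 (quasi-likelihood, TMM, filterByExpr), with DESeq2 1.42.0 as an alternative (R 4.3.3), in libraries with at least 20 members, which left 2 residual degrees of freedom in each depot fit. Genes were called where the p adjusted by Benjamini-Hochberg was 0.05 or less and the change 1.1-fold or more. On simulated counts the check asked only that the median log2 fold lie near the fold put in, so it does not show error rates or power. Titles name biological replicates; both depots may come from the same mice, so p-values between depots may rest on paired animals. The members and the 41 gene lists were chosen with earlier results of these data known. Named genes were list members, the 10 largest called changes in each direction at a mean of at least 20 CPM without overlap between groups (the 5 of smallest p where fewer than 3 were called) and the 15 highest ratios at 50 CPM or more. A few genes that the rule would name are not reported here. Python 3.11.15 with pandas 2.3.3 and scipy 1.17.1 did the rest.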

Additional observations from a re-analysis of the deposited data

Results flagged for a closer look

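The results below are differences, tested as an interaction by edgeR, between the change from WT-Veh to ob/ob-Rosi in eWAT members and the change in another macrophage population of the same 4 libraries. Groups of 2 libraries were too small to test for a single library that stands apart.

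Against perivascular macrophages the difference was positive for 6 genes. It was log2 2.02 for Retnla, 1.97 for Ccl7, 1.96 for Ccl2 and 1.74 for Ccl4, which is a secreted resistin-like protein with 3 chemokines, and 2.68 and 1.88 for the heat shock genes Hspa1b and Hspa1a, near-identical copies that can share reads. It was negative for the haemoglobin gene Hbb-bs, at log2 -4.46, but at -0.70 with a threshold of 3 UMIs (edgeR adjusted p 1). DESeq2 called 2 of the 7, Retnla and Ccl2. Without WT-Veh replicate 1 the edgeR adjusted p was 0.461 for Ccl7 and 1 for Hspa1a and Hspa1b, without WT-Veh replicate 2 it was 0.617 for Ccl4 and 1 for Hbb-bs, and without ob/ob-Rosi replicate 1 it was 0.173 for Ccl2, 0.382 for Hspa1a and 0.994 for Hspa1b, Ccl4 and Hbb-bs. Retnla was called in each of the 4 fits. With members thinned to 700 UMIs, Retnla was the only 1 of the 7 called.

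Against Trem2-low macrophages the difference was log2 1.50 for Retnla (SE 0.13), -4.40 for the haemoglobin gene Hbb-bt and -2.67 for Igfbp5, a binding protein of insulin-like growth factors. Retnla and Igfbp5 were called whichever of the 4 libraries was left out, and Hbb-bt was not called without WT-Veh replicate 2 (edgeR adjusted p 0.922). Without cells of another lineage 0 of these 3 were called, with Retnla at log2 1.68 (edgeR adjusted p 0.8995), Hbb-bt at an adjusted p of 0.997 and Igfbp5 not tested because of low counts. Of the 3, Retnla alone was called with a threshold of 3 UMIs or with thinned members. Igfbp5 was at log2 -1.003 with a threshold of 3 UMIs and -0.22 with 10 UMIs, neither called, and Hbb-bt at -0.56 with 3 UMIs, so the values of both depended on the threshold of the gate. Hbb-bs and Hbb-bt are near-identical and can share reads. Erythroid genes summed to 8.996 and 289.7 CPM in WT-Veh members and to 17.1 and 12.7 in ob/ob-Rosi members, so WT-Veh replicate 2 stood above the other 3 libraries with both haemoglobin genes, and the part of red cell RNA was not tested.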

How the results depend on the processing

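Each group held 2 libraries and each depot fit 2 residual degrees of freedom, so counts of calls moved with single libraries and settings. The cause of each shift was not tested beyond what the setting itself changes (fewer cells, UMIs or libraries, or more genes). Of 108 alternative values of the 12 share differences, 107 kept their direction, and the iWAT share of kept cells in ob/ob-Rosi minus WT-Veh turned from 0.667 to -0.167 percentage points with cells thinned to 2000 UMIs. The compared groups did not overlap in any of the 12, so leaving out a library could not turn a direction. The 77 named called genes were refitted 609 times with a replicate left out, by DESeq2, by library totals and with a replicate block; 512 fits kept the call, 97 lost it and 0 turned direction. For 37 of these results, thresholds of 3 and 10 UMIs, members thinned to 700 UMIs and leaving out cells of another lineage gave 148 further fits, of which 75 kept the call, 53 lost it, 20 did not test the gene and 0 turned direction. In eWAT, ob/ob-Rosi against WT-Veh, the 5 calls became 13 by DESeq2, 33 without a filter on low counts, 3 with a threshold of 3 UMIs, 3 with members thinned to 700 UMIs and 0 over all Trem2 macrophages (edgeR; an unadjusted p under 0.05 for 107 higher and 182 lower genes, and 7 calls by DESeq2), and 0 to 79 with a replicate left out. In iWAT the 3 calls became 49 without the filter and 0 with a threshold of 3 UMIs (edgeR; 173 and 179 at an unadjusted p under 0.05), 0 without cells of another lineage, 0 with thinned members, 0 over all Trem2 macrophages (186 and 315, and 11 calls by DESeq2) and 7 to 126 with a replicate left out. With at least 5 members per library in eWAT, the 122 calls of ob/ob-Veh against WT-Veh became 46 to 199 with a replicate left out, and the 63 of ob/ob-Rosi against ob/ob-Veh became 139 by DESeq2 and 23 to 330. Over all Trem2 macrophages the 3301 and 3424 calls of these comparisons became 1472 to 3091 and 1626 to 3020 with a replicate left out. The 179 calls between depots became 445 without the filter, 32 with a threshold of 3 UMIs, 18 without cells of another lineage, 18 with thinned members and 99 to 198 with a replicate left out. The 7 interaction calls against perivascular macrophages became 2 by DESeq2, 1 with thinned members and 3 to 15 with a replicate left out, and the 3 against Trem2-low cells became 23 without the filter, 7 with thinned members and 9 to 16. A minimum of 10 members could not be run for ob/ob-Veh, and iWAT ob/ob-Veh members (3 and 1 cells) could not be fitted.

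The labels number the replicates in each group, but with 2 pairs per depot the numbers were not shown to pair libraries: over genes, the difference between replicates 1 and 2 correlated between WT-Veh and ob/ob-Rosi at 0.130 in eWAT and 0.596 in iWAT. With a replicate block the counts were 40 in eWAT and 178 in iWAT for ob/ob-Rosi against WT-Veh, 276 and 241 for the eWAT comparisons with at least 5 members, and 306 between depots.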
